A study of Mus musculus with 2 samples.

Results

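The genes described here build 2 kinds of contact between epithelial cells, tight junctions and desmosomes. They were taken by symbol, by a rule that used no measured value but was set with earlier results of these data known. The rule named the numbered claudins (Cldn), the desmocollins (Dsc), the desmogleins (Dsg), the plakophilins (Pkp) and the zonula occludens scaffolds (Tjp). It also named Ocln, F11r, Dsp, Jup, Marveld2 and Marveld3. The rule found 45 genes among the 32285 in the count tables. Their RNA was measured in single cells of 2 tissues, back skin and the preputial gland (PG), a paired sebaceous-like gland of male rodents. The tissues were taken from 3 wild-type males of the strain C57BL/6, aged 52 weeks and untreated as far as the labels say, and the material of each tissue was pooled into 1 library. There was therefore no replicate of either tissue. Every interval below covers counting error only, and no p-value is given.

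Tight junctions seal the gap between neighbouring cells. Claudins and occludin span the membrane and set what may pass, the MARVEL proteins (Marveld2, tricellulin, and Marveld3) accompany occludin, F11r (junctional adhesion molecule A) is an immunoglobulin-type adhesion protein, and the zonula occludens proteins tie the complex to actin. Desmosomes hold cells together against pull. Desmocollins and desmogleins are their adhesive cadherins, plakoglobin (Jup) and the plakophilins bind the cadherin tails inside the cell, and desmoplakin (Dsp) links this plaque to keratin filaments. In stratified epidermis the cadherin isoforms are known to change with differentiation, with Dsg2, Dsg3 and Dsc3 typical of lower layers and Dsg1 and Dsc1 of upper layers.

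The sequence before the start site is shown for Cldn1 and Cldn4, the claudins with the highest levels in keratinocytes, and for Dsp, the member with the most UMIs. Each run is the 250 bases before the RefSeq start (GRCm38.p6), read on the strand of the gene. Capitals mark 2 short motifs searched on both strands, the Snail E-box (CAGGTG or CACCTG) and the AP-1 site (TGAGTCA or TGACTCA), which do not overlap each other here. The window of Cldn1 is chr16:26371840-26372089 on the minus strand, that of Cldn4 is chr5:134946935-134947184 on the minus strand, and that of Dsp is chr13:38151044-38151293 on the plus strand.
Cldn1: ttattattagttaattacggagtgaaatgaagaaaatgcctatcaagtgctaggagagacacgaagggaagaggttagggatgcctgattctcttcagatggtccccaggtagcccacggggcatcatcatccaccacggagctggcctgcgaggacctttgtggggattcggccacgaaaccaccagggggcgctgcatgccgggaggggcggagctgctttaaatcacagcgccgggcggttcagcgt
Cldn4: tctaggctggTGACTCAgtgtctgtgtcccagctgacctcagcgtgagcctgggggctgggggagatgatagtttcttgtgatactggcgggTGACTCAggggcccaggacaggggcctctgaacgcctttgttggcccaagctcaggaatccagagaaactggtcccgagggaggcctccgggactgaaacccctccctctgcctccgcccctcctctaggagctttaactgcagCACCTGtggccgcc
Dsp: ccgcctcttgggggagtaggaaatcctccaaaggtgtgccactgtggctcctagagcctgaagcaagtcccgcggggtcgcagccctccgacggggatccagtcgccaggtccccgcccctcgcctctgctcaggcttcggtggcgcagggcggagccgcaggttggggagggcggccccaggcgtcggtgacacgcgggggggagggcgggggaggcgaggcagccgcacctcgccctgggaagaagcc

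The Cldn4 window held the AP-1 letters at 240 and 158 bases before the start and the E-box letters at 14 bases, and the windows of Cldn1 and Dsp held neither. Members on chromosome 18 were left out of this count. Of the 27 other members with a promoter entry, 3 (Cldn4, Cldn15 and F11r) held the AP-1 letters and 8 held the E-box letters. By window, 3 of 39 member windows held the AP-1 letters and 9 of 39 the E-box letters. Over all 32851 windows of the same length, 4.46% held the AP-1 letters and 17.2% the E-box letters. A match of letters is a description of these windows and not a measured binding site. The 9 desmosomal cadherin genes lie side by side on chromosome 18 and are described by their counts only.

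After barcodes with fewer than 500 genes, fewer than 1000 UMIs (unique molecular identifiers, 1 per captured RNA molecule) or more than 10% mitochondrial UMIs were left out, 8899 cells of back skin and 4699 of PG remained, with medians of 2386 and 2729 UMIs per cell. No cell barcode occurred in both libraries. Each cell was given a class from marker genes that hold none of the 45 members, a step that 69.5% of cells passed in skin and 60.5% in PG. Classes are named "-like" since the names rest on these markers alone. The suprabasal-like class of PG was small, with 68 cells, and differed in kind from that of skin: Krtdap stood at 10422 CPM (UMIs of a gene scaled to a fixed total, counts per 1e6 UMIs of the class) and Dmkn at 3948 CPM, close to 12764 and 4238 CPM in skin, but Krt10 at 102 CPM against 17552 CPM and Krt1 at 562 CPM against 5534 CPM. The list of possible barcodes deposited with the skin library held 6794880 entries and that of PG 737280, although the labels name the same kit for both, so tissue and library cannot be told apart in any comparison between them.

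Members took a larger part of the RNA in suprabasal-like and upper follicle-like cells than in basal-like cells of both tissues. They made up 0.712% of all UMIs in skin suprabasal-like cells, 0.532% in upper follicle-like cells, 0.336% in inner root sheath-like cells, 0.305% in basal-like cells and 0.231% in hair matrix-like cells. In PG they made up 0.454% in upper follicle-like cells, 0.357% in suprabasal-like cells, 0.185% in basal-like cells and 0.0887% in sebocyte-like cells. In fibroblast-like cells they made up 0.0413% in skin and 0.0336% in PG. In endothelial-like cells they made up 0.237% in skin (57 cells) and 0.274% in PG (45 cells). The 39 granular-like cells of skin held 0.386%. Of the 45 members, 21 reached 50 CPM in at least 1 class of 50 cells or more, and 20 of these are described with values. The other 24 stayed below that level. Among them 4 had no UMI in any cell (Cldn13, Cldn16, Cldn18 and Cldn24), and 14 members in all had at most 20 UMIs over both libraries. Of the 23 claudins, 5 reached 50 CPM. Members below 50 CPM that are named below with values (Ocln, Marveld2, Marveld3, Tjp3, Cldn3, Cldn12, Cldn15, Cldn23 and Pkp2) were chosen after their values were seen.

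**Figure D1:**
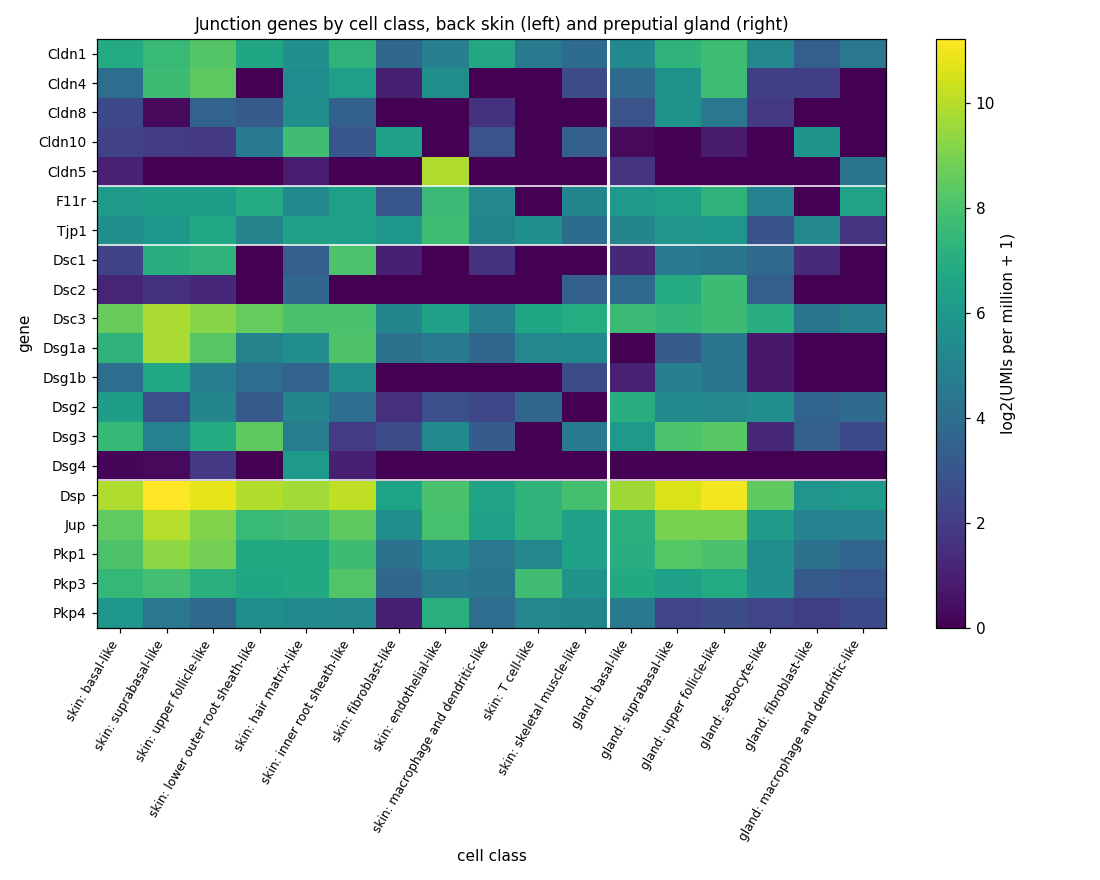
Heat map of the level of 20 members, log2(CPM + 1), in every class of at least 50 cells, with back skin left and PG right of the white line. Dsp is the brightest row in the keratinocyte classes, with 2395 CPM in skin suprabasal-like cells and 2062 CPM in PG upper follicle-like cells, and Cldn5 is bright in endothelial-like cells alone among the classes shown.

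In back skin, the step from basal-like (3304 cells) to suprabasal-like (1123 cells) went with higher RNA of Dsp, Jup and Pkp1 of the plaque and of the cadherins Dsc1, Dsg1a, Dsg1b and Dsc3, and with lower RNA of Dsg2, Dsg3 and Pkp4. Dsp, the keratin linker, stood at 953 CPM in basal-like and 2395 CPM in suprabasal-like cells, a log2 ratio of 1.33 (95% interval 1.29 to 1.37). Jup, the plakoglobin that joins cadherin tails to Dsp, stood at 355 and 993 CPM (log2 ratio 1.49, 1.42 to 1.55). Pkp1, the plakophilin of stratified epithelia, stood at 268 and 636 CPM (1.24, 1.17 to 1.32). Among the other plaque members, Pkp3 stood at 175 and 233 CPM, 1.33-fold higher and so within 2-fold. Pkp4, which also occurs at adherens junctions, was lower at 59.3 against 21.5 CPM.

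The cadherins of the same cells moved in opposite directions. Dsc1 stood at 3.91 CPM in basal-like and 132 CPM in suprabasal-like cells, 33.6-fold higher, and Dsg1a at 157 and 886 CPM, 5.65-fold higher. Dsg1b stood at 15.7 and 104 CPM, and Dsc3, present in both layers, at 390 and 883 CPM, 2.26-fold higher. Against these, Dsg2 stood at 75.8 and 5.75 CPM (13.2-fold lower) and Dsg3 at 181 and 30.2 CPM (6.00-fold lower, log2 ratio -2.58, -2.84 to -2.34). Dsg1a, Dsg1b and Dsg1c are close copies whose reads could have been split or dropped in counting, so their sum is the safer value, at 173 CPM in basal-like and 992 CPM in suprabasal-like cells.

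Among the tight junction members, Cldn4 showed a 13.3-fold difference, with 15.3 CPM in basal-like and 204 CPM in suprabasal-like skin cells. Cldn1, the claudin needed for the epidermal water barrier in mice, was present in both layers at 118 and 190 CPM, within 2-fold. Occludin and the MARVEL proteins were low: Ocln (8.55 and 20.6 CPM) and Marveld2 (7.72 and 18.3 CPM) were higher in suprabasal-like cells, while Marveld3, at 18.6 and 11.9 CPM, lay within 2-fold (log2 ratio -0.65). Of the scaffolds, Tjp3 stood at 6.49 and 40.2 CPM (6.20-fold higher), whereas Tjp1 (45.2 and 61.1 CPM) and F11r (73.5 and 78.3 CPM) lay within 2-fold. Cldn3 (25 UMIs against 5) and Cldn23 (76 UMIs against 3) were also higher. For Cldn23, which stood at 16.2 CPM in suprabasal-like cells, the 39 granular-like cells held 164 CPM (118 to 222). Cldn8 was lower in suprabasal-like cells, on 1 UMI against 45.

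In all, 13 of the 25 members with enough UMIs (at least 10 expected in each class) were at least 2-fold higher in suprabasal-like than in basal-like skin cells and 4 were at least 2-fold lower, while 8.51% and 18.9% of all 10989 genes tested were. The median log2 ratio was 1.18 over these members and -0.22 over all genes. The 20 members without enough UMIs are not part of these counts, and a low gene enters more easily when it is high in 1 of the classes, here and in the counts below.

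In PG, suprabasal-like cells were compared with 1584 basal-like cells, and 11 members had enough UMIs. Jup stood at 139 CPM in basal-like and 505 CPM in suprabasal-like cells (log2 ratio 1.86, 1.57 to 2.13), Pkp1 at 133 and 309 CPM (1.22, 0.86 to 1.57) and Dsp at 801 and 1538 CPM (0.94, 0.79 to 1.10). Cldn1 stood at 38.7 and 155 CPM, 3.99-fold higher. Among the cadherins with enough UMIs, Dsc2 stood at 13.3 and 118 CPM (8.86-fold higher) and Dsg3 at 66.2 and 260 CPM (3.93-fold higher, log2 ratio 1.98, 1.57 to 2.37). Dsg2, at 125 and 40.7 CPM, was lower in suprabasal-like cells of PG as it was in skin. Dsc3, at 203 and 171 CPM, lay within 2-fold.

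Of these 11 members, 5 were at least 2-fold higher and 1 was lower, beside 10% and 17.8% of the 2774 genes tested. The median log2 ratio was 0.94 over the members and -0.20 over all genes. Cldn4, with 13 UMIs in the suprabasal-like cells, fell short of enough UMIs and stood at 52.9 CPM (28.2 to 90.5) against 13.1 CPM in basal-like cells. Dsc1 (6 UMIs, 24.4 against 1.46 CPM, log2 ratio 4.07, 2.22 to 5.86) and Dsg1b (7 UMIs, 28.5 against 1.04 CPM, log2 ratio 4.77, 2.90 to 6.77) also fell short, with intervals above 2-fold. Cldn8 had 13 UMIs there, at 52.9 CPM against 6.24 CPM, while skin suprabasal-like cells held 1 UMI of it. None of the ratios of this PG class could be computed with a stricter gate, a stricter barcode filter (at least 1000 genes and 2000 UMIs) or Leiden clusters: the gated class fell under 50 cells, and no PG cluster was named suprabasal-like.

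**Figure D2:**
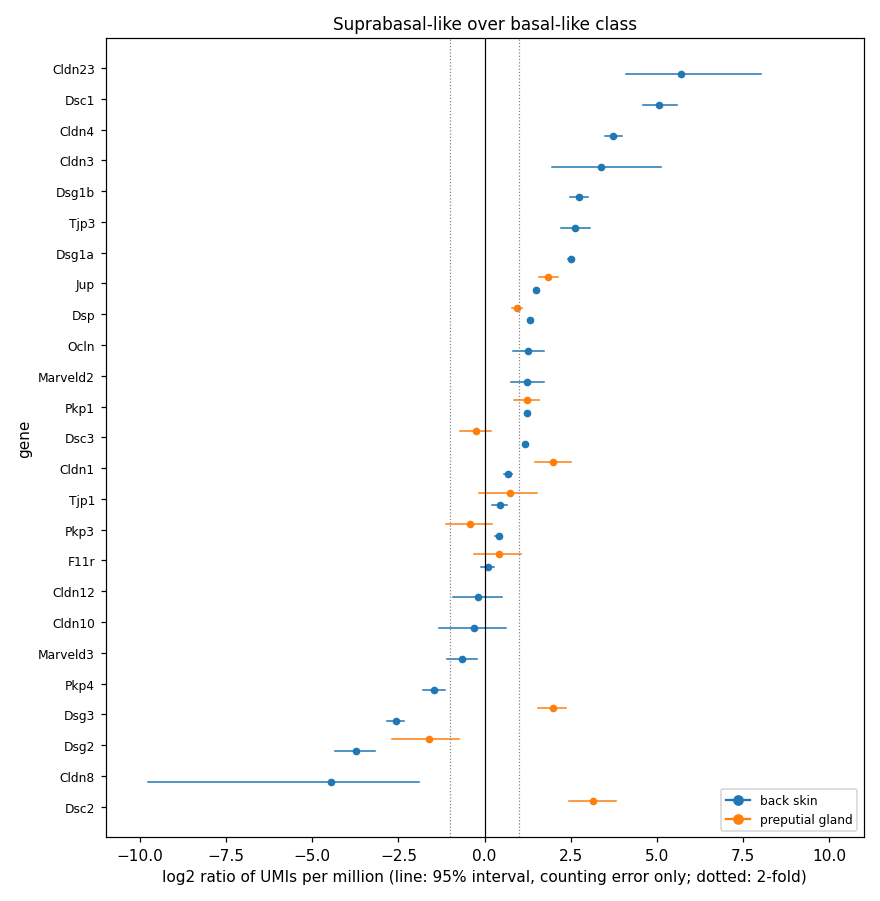
Log2 ratio of CPM, suprabasal-like over basal-like cells, for members with enough UMIs, in back skin (blue) and PG (orange). Points are ratios, lines are 95% intervals for counting error and dotted lines mark 2-fold. Dsg3 lies at -2.58 in skin and 1.98 in PG, while Dsg2 lies below 0 and Pkp1 and Jup above 1 in both.

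Upper follicle-like cells (markers Krt79, Krt17, Defb6, Cst6, Plet1 and Lrig1) numbered 241 in skin and 281 in PG. They had the highest Cldn1 and Cldn4 of any class of 50 cells or more. In skin, Cldn4 stood at 343 CPM and Cldn1 at 300 CPM, against 15.3 and 118 CPM in basal-like cells. In PG, Cldn4 stood at 214 CPM and Cldn1 at 216 CPM, against 13.1 and 38.7 CPM in basal-like cells. Cldn4 was thus 22.3-fold higher than in basal-like cells in skin and 16.3-fold higher in PG. The intervals of the Cldn4 ratio overlap, from 4.18 to 4.78 in skin and from 3.63 to 4.45 in PG on the log2 scale. Thinned to 1000 UMIs per cell, Cldn4 was detected in 16.6% of upper follicle-like cells of skin and in 12.5% of those in PG (25.3% and 38.8% before thinning), against 0.2% and 0.238% of the fibroblast-like cells, which should lack it.

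Both tissues had more Dsc1 and Dsg1a in upper follicle-like than in basal-like cells. In skin, Dsc1 stood at 155 CPM against 3.91 CPM in basal-like cells (39.5-fold higher), Dsg1a at 316 against 157 CPM (2.02-fold higher), and Dsg3 at 117 against 181 CPM, within 2-fold. In PG, Dsc2 stood at 207 CPM against 13.3 CPM (15.6-fold higher) and Dsg3 at 313 against 66.2 CPM (4.73-fold higher). Dsc1 was higher in PG too, at 19.3 against 1.46 CPM (26 and 7 UMIs, 13.3-fold), as was Dsg1b, at 20.1 against 1.04 CPM (19.3-fold). Dsg1a had 27 UMIs in PG upper follicle-like cells (20.1 CPM) and none in PG basal-like cells, which with a floor of 3 counts is at least 32.1-fold higher. Dsg2 was lower than in basal-like cells in both tissues, 33.2 against 75.8 CPM in skin and 35.7 against 125 CPM in PG. So was Pkp4, with 13.8 against 59.3 CPM and 5.20 against 24.4 CPM. With the stricter barcode filter the skin ratios of Dsg1a (log2 0.81) and Dsg2 (-0.97) lay within 2-fold.

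Of the plaque and tight junction members, Dsp stood at 2062 CPM against 801 CPM in PG basal-like cells (2.58-fold higher), Jup at 494 against 139 CPM and F11r at 159 against 64.5 CPM. In skin the same 3 genes lay within 2-fold, with Dsp at 1806 against 953 CPM and Jup at 546 against 355 CPM, and Tjp1 (102 against 45.2 CPM) and Ocln (31.8 against 8.55 CPM) were higher, Tjp1 not with Leiden clusters (log2 0.92). Counted over members with enough UMIs, 6 of 18 were higher and 2 lower in skin, beside 8.35% and 10.9% of the 6386 genes tested, and 13 of 21 were higher and 2 lower in PG, beside 8.02% and 23.6% of 8401 genes. The share of members that was lower in skin, 11.1%, was near that of all genes. The members' medians were 0.72 and 1.31, and those of all genes -0.10 and -0.39. These are 2 comparisons within tissues, and the difference between tissues in these ratios was not tested.

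**Figure D3:**
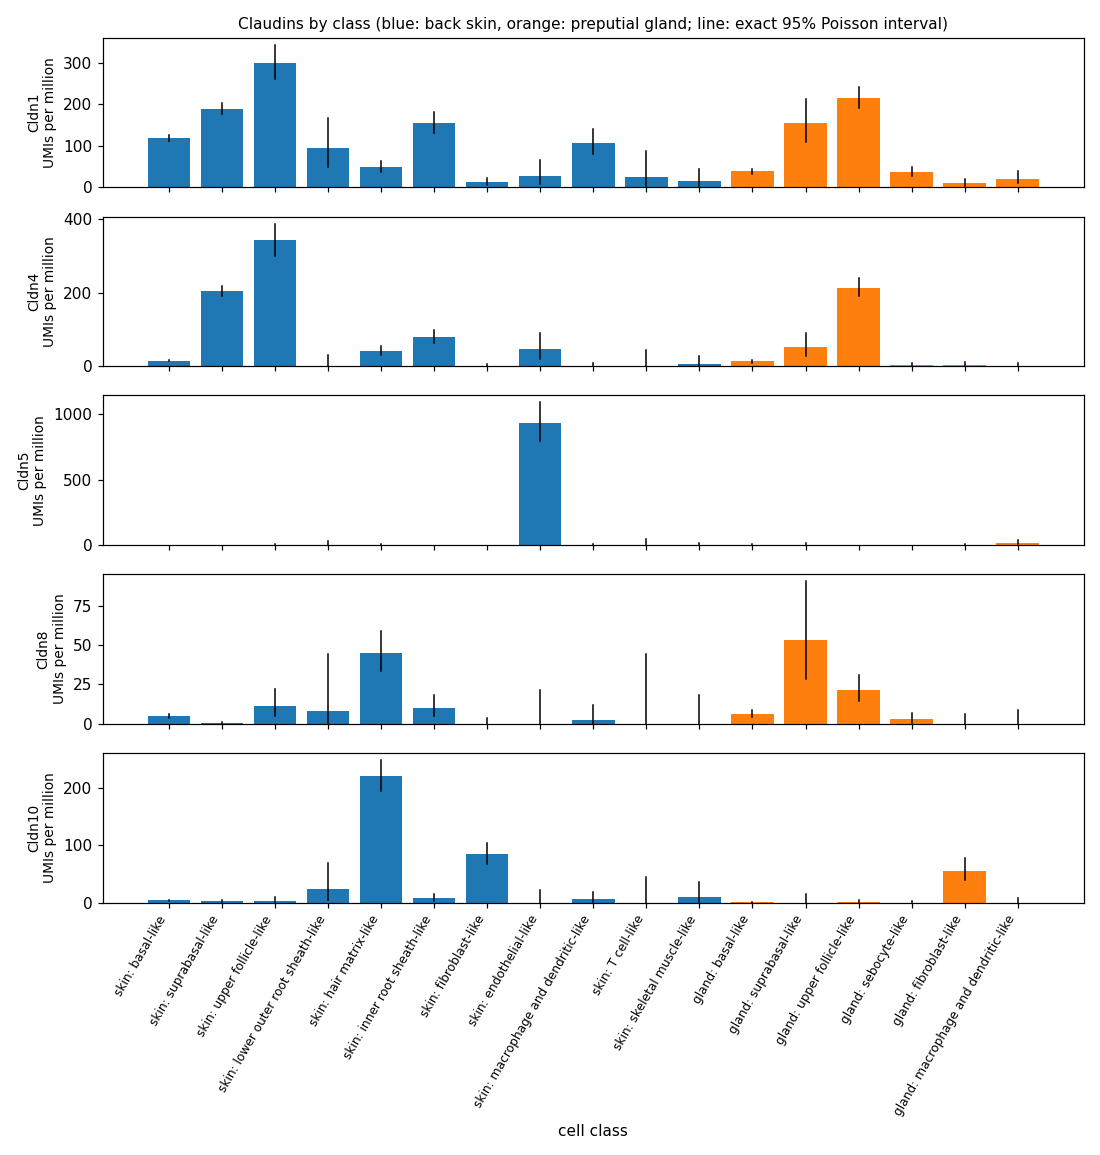
Level in CPM of the 5 claudins that reached 50 CPM, in every class of at least 50 cells of back skin (blue) and PG (orange), with exact 95% Poisson intervals. Among the classes shown, Cldn1 and Cldn4 are highest in upper follicle-like cells and Cldn10 in hair matrix-like and fibroblast-like cells. Cldn5 is highest in skin endothelial-like cells, at 934 CPM. Cells given no class are not shown.

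The make-up of the cadherin families does not depend on the total RNA of a class. Counts of 1 3' end per molecule carry no term for gene length, but how well each 3' end is captured may differ between genes and was not tested. Among desmoglein UMIs, skin basal-like cells held 42.1% Dsg3, 36.5% Dsg1a and 17.6% Dsg2, and skin suprabasal-like cells 86.2% Dsg1a, 10.1% Dsg1b and 2.94% Dsg3. Inner root sheath-like cells resembled the latter, with 80.2% Dsg1a. Hair matrix-like cells of skin held 36.9% Dsg4, the desmoglein of the hair shaft, which had 79 of its 111 UMIs there. The 61 lower outer root sheath-like cells held 86.3% Dsg3, on 51 UMIs. Dsg3 stood there at 349 CPM, its highest level in any class of 50 cells or more, with Dsc3 at 381 CPM and Dsp at 968 CPM.

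Among desmoglein UMIs of PG, basal-like cells held 64.9% Dsg2 and 34.4% Dsg3, its suprabasal-like cells 77.1% Dsg3, its upper follicle-like cells 80.5% Dsg3 and its sebocyte-like cells 94.4% Dsg2. The 3 Dsg1 copies together made up 0.649% of desmoglein UMIs in PG basal-like cells, 10.8% in suprabasal-like and 10.3% in upper follicle-like cells, against 40.2%, 96.5% and 69.3% in the same classes of skin. The PG shares rest on 6, 9 and 54 UMIs of these copies. Among desmocollins, Dsc3 made up 98.7% in skin basal-like and 93.2% in PG basal-like cells. Beside it, Dsc1 was found in differentiated cells of skin, with 12.9% in suprabasal-like, 20.7% in upper follicle-like and 50.1% in inner root sheath-like cells (258 UMIs, against 257 of Dsc3). In PG, Dsc2 made up 37.7% in suprabasal-like and 47.9% in upper follicle-like cells (279 UMIs, against 278 of Dsc3). Dsc2 made up 0.209% and 0.185% in those 2 classes of skin.

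**Figure D4:**
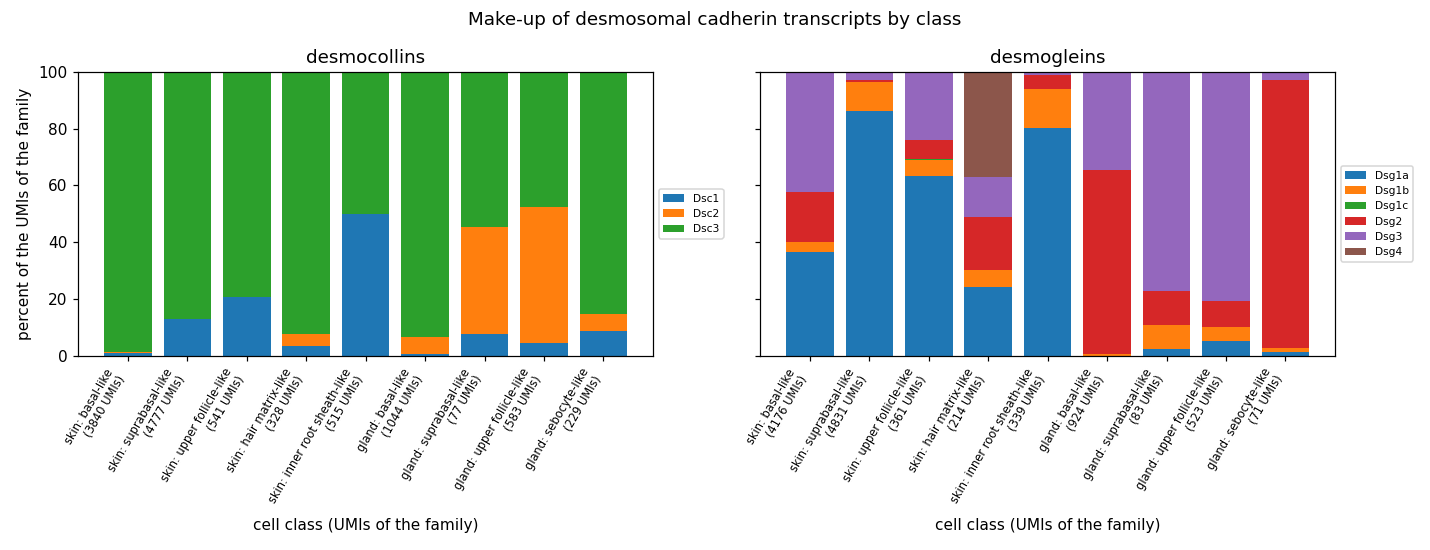
Percent of the desmocollin UMIs (left) and desmoglein UMIs (right) that each gene made up, with the number of UMIs of the family below each bar. Skin bars are basal-like, suprabasal-like, upper follicle-like, hair matrix-like and inner root sheath-like cells. PG bars are basal-like, suprabasal-like, upper follicle-like and sebocyte-like cells. Granular-like, lower outer root sheath-like and skin sebocyte-like cells are not shown. Dsg1a (blue, right panel) fills most of the skin suprabasal-like bar at 86.2%, and Dsg3 (purple) most of the PG suprabasal-like bar at 77.1%.

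Set against skin class by class, PG had less Dsg1 (copies summed) and Dsc1 and more Dsc2 in all 3 keratinocyte classes compared. Classes of the same name need not hold the same cells in PG and skin. The genes that most set the basal-like class apart within its library included the cell cycle genes Cenpf and Ccna2 in PG but not in skin. Those of the upper follicle-like class shared only Cst6 and Defb6, which are themselves markers that define the class, and the others differed. Those of the suprabasal-like class had no gene in common. How far this enters the ratios was not tested. In basal-like cells Dsg1a had 1524 UMIs in skin (157 CPM) and none in PG, at least 251-fold lower with a floor of 3 counts. In the free RNA of skin, read from barcodes of at most 50 UMIs, Dsg1a stood at 221 CPM, and in skin fibroblast-like cells at 17.8 CPM. In upper follicle-like cells Dsg1b by itself lay within 2-fold (27 UMIs in PG, 20 in skin), and Dsg1a was lower (27 UMIs in PG, 229 in skin). With the 3 copies summed, PG over skin was 138-fold lower in basal-like, 27.1-fold lower in suprabasal-like and 8.61-fold lower in upper follicle-like cells. These values rest on 6, 9 and 54 UMIs in PG. Their log2 intervals were -8.56 to -5.99, -5.89 to -3.83 and -3.56 to -2.68. Dsc2 was higher in PG in the same classes, by 10.8-fold (log2 ratio 3.43, 2.53 to 4.46), 55.4-fold (5.79, 4.72 to 6.99) and 150-fold, the last on 1 UMI in skin (7.23, 4.74 to 12.54). Dsc1 stood at 1.46 against 3.91 CPM, 24.4 against 132 CPM and 19.3 against 155 CPM. In basal-like cells Dsc1 lay within 2-fold at a 5% mitochondrial limit, without high doublet scores and with Leiden clusters (log2 ratios from -0.99 to -0.96).

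Dsg3 differed between tissues in a class-dependent way. PG had less Dsg3 in basal-like cells (66.2 against 181 CPM, 2.74-fold lower) and more in suprabasal-like (260 against 30.2 CPM, 8.62-fold higher) and upper follicle-like cells (313 against 117 CPM, 2.66-fold higher). Dsc3 was lower in PG suprabasal-like (171 against 883 CPM) and upper follicle-like cells (207 against 591 CPM). Dsp lay within 2-fold of skin in all 3 classes, with log2 ratios of -0.25, -0.64 and 0.19. Cldn1 was lower in PG basal-like cells (38.7 against 118 CPM) and lay within 2-fold in the other classes, and Cldn4 was lower in PG suprabasal-like cells (52.9 against 204 CPM). Tjp3 was higher in PG basal-like cells, at 15.8 against 6.49 CPM.

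Of the members with enough UMIs, PG was at least 2-fold higher in 2 of 23 and lower in 10 in basal-like cells, beside 19.2% and 15.1% of the 11515 genes tested. In suprabasal-like cells 2 of 15 were higher and 8 lower, beside 15.9% and 24.8% of 2755 genes, and in upper follicle-like cells 3 of 19 were higher and 5 lower, beside 14.9% and 20.6% of 6042 genes. The members' median log2 ratios were -0.63, -1.04 and -0.46, and those of all genes 0.14, -0.22 and -0.17. Dsg1a enters the median of the basal-like comparison at its bound. In upper follicle-like cells both shares of members, 15.8% higher and 26.3% lower, were near those of all genes. In suprabasal-like cells the share that was higher, 13.3%, was also near that of all genes.

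**Figure D5:**
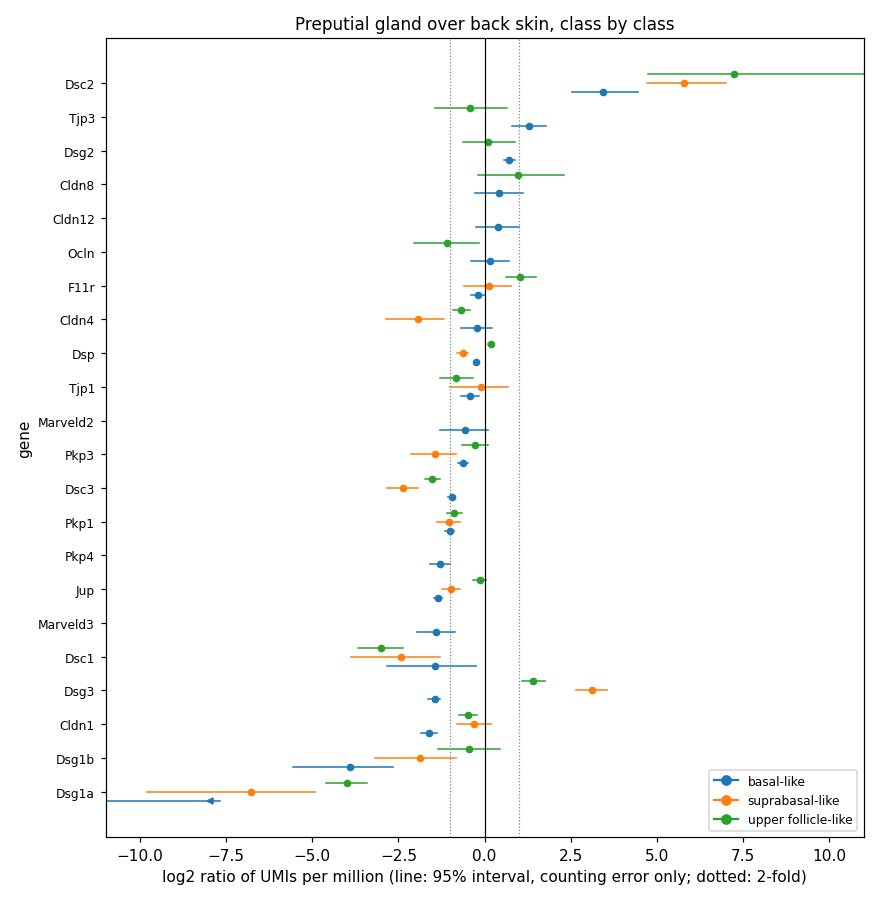
Log2 ratio of CPM, PG over back skin, in basal-like (blue), suprabasal-like (orange) and upper follicle-like cells (green), for members with enough UMIs. Lines are 95% intervals for counting error and run off the axis where wider, the arrow is a bound for Dsg1a, and dotted lines mark 2-fold. Dsc2 lies right of 3 and Dsg1a left of -3 in all 3 classes.

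In 221 hair matrix-like cells Cldn10 stood at 220 CPM against 3.71 CPM in basal-like cells (59.4-fold higher, log2 ratio 5.89, 5.39 to 6.44), Cldn8 at 45.1 against 4.63 CPM and Dsg4 at 67.2 against 0.103 CPM, the latter on 79 UMIs against 1 (log2 ratio 9.35, 6.83 to 14.67). Cldn4 was higher too, at 42.5 against 15.3 CPM. Lower in these cells were Dsg3 (25.5 against 181 CPM), Dsg1a (44.3 against 157 CPM), Cldn1 (48.5 against 118 CPM), Pkp1 (112 against 268 CPM) and Dsg2 (34.0 against 75.8 CPM). Dsp, at 823 CPM, and Dsc3, at 258 CPM, lay within 2-fold of basal-like cells. Over 19 members with enough UMIs, 4 were higher and 7 lower, beside 17% and 17.6% of 8182 genes, with medians of -0.63 and 0.20. The share of members that was higher, 21.1%, was near that of all genes.

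Inner root sheath-like cells (241) had the highest Dsc1 level of any class of 50 cells or more. The smaller granular-like class (39 cells) held 92 Dsc1 UMIs, 83.6% of its desmocollin UMIs, which together stood at 430 CPM. Dsc1 thus stood higher in granular-like than in inner root sheath-like cells, though on few cells. In inner root sheath-like cells Dsc1 stood at 260 CPM against 3.91 CPM in basal-like cells (66.6-fold higher, log2 ratio 6.06, 5.56 to 6.59). Dsg1b (46.4 against 15.7 CPM), Cldn4 (79.8 against 15.3 CPM) and Marveld2 (19.2 against 7.72 CPM) were also higher. Dsg3 was nearly absent, with 3 UMIs (3.03 CPM, log2 ratio -5.90, -8.18 to -4.35), and Dsg2 (16.2 CPM) was lower. Pkp3 reached its highest level in keratinocytes there, at 285 CPM against 175 CPM in basal-like cells, within 2-fold. Over 18 members, 4 were higher and 4 lower, beside 15% and 15.9% of 7671 genes, and the median was 0.19 against 0.21 over all genes. The shares of members past 2-fold, 22.2% in each direction, were near those of all genes.

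Sebocyte-like cells of PG (221 cells, median 6584 UMIs) had at least 2-fold less RNA than PG basal-like cells of 10 of the 20 members with enough UMIs. Dsp stood at 343 against 801 CPM (2.33-fold lower, log2 ratio -1.22, -1.36 to -1.09), Pkp1 at 44.5 against 133 CPM, Pkp3 at 49.3 against 113 CPM, Dsg2 at 45.9 against 125 CPM and Tjp1 at 6.17 against 33.9 CPM. Dsg3 had 2 UMIs against 318 (log2 ratio -5.59, -8.65 to -3.73). Not all members were lower: Dsc3 (134 against 203 CPM), Jup (73.3 against 139 CPM) and Cldn1 (37.0 against 38.7 CPM) lay within 2-fold, and Cldn12 (21.2 against 7.91 CPM), Pkp2 (13.7 against 2.71 CPM), Marveld2 (11.7 against 5.20 CPM) and Dsc1 (13.7 against 1.46 CPM) were higher, on 17 to 31 UMIs each. Tjp3 made up 72.0% of the 50 zonula occludens UMIs of these cells and 22.1% of those of basal-like cells. The level of Tjp3 itself lay within 2-fold between these classes, while that of Tjp1 was lower.

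In all 4 of these members were higher and 10 lower, beside 9.96% and 20.9% of 8625 genes, with medians of -0.996 and -0.24. Higher calls were fewer under some settings, 1 of 14 members with the stricter gate and 2 of 19 with the stricter barcode filter. At a 5% mitochondrial limit 2 of 16 were higher. In each of these settings 9 members were lower. Under the other alternatives 3 or 4 members were higher. The 20 sebocyte-like cells found in skin were under the minimum of 50 cells for a ratio, so only their levels can be given. Dsp stood there at 299 CPM (204 to 422), Jup at 168 CPM (99.7 to 266), Dsc3 at 84.1 CPM (38.4 to 160) and Cldn12 at 46.7 CPM (15.2 to 109). Neither a difference nor a likeness between sebocyte-like cells of the 2 tissues can be read from so few cells.

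Outside the epithelium a few members marked other cell classes. Cldn5, the endothelial claudin, stood at 934 CPM (796 to 1089) in the 57 endothelial-like cells of skin and at 1442 CPM in the 45 of PG, against 1.03 CPM in skin basal-like cells. Tjp1 (212 CPM), F11r (201 CPM) and Pkp4 (138 CPM) were at their highest among skin classes of 50 cells or more in these cells. Cldn10 stood at 84.2 CPM in skin and 55.8 CPM in PG fibroblast-like cells, beside 38.3 and 2.03 CPM in the free RNA. Of the 1207 Cldn10 UMIs in skin cells, 783 lay in cells given no class, as did 176 of the 350 Cldn5 UMIs. Cldn15 was at 31.9 CPM in PG fibroblast-like and 0.990 CPM in skin fibroblast-like cells.

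Dsp RNA was also read at low level in cells that should lack it. Dsp, which stood at 985 CPM in the free RNA of skin and 803 CPM in that of PG, was read at 90.1 and 57.4 CPM in fibroblast-like cells and at 94.4 and 65.8 CPM in macrophage and dendritic-like cells. In skin, endothelial-like cells held 45 Dsp UMIs of 174521 and T cell-like cells 13 of 83211, larger shares than in those classes. Cldn1 had 50 UMIs beside 44 of Dsp in macrophage and dendritic-like cells of skin, and 113 beside 1105 in the free RNA. In PG it had 9 beside 28 in that class and 101 beside 1584 in the free RNA. F11r had 37 UMIs beside the 28 of Dsp in that PG class, and 106 beside 1584 in the free RNA. Pkp3 had 18 beside 13 in T cell-like cells of skin, and 114 beside 1105 in the free RNA. Each thus stood higher against Dsp in these cells than in the free RNA, but these pairs of gene and class were not fixed in advance and the Dsp counts were small. Whether free RNA accounts for the reads in these classes was not tested.

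Genes that work beside the members were read from fixed lists. Their counts stand beside the shares over all genes: 8.51% higher and 18.9% lower in suprabasal-like skin cells, 9.96% and 20.9% in PG sebocyte-like cells, and, for PG over skin, 19.2% and 15.1% in basal-like, 15.9% and 24.8% in suprabasal-like and 14.9% and 20.6% in upper follicle-like cells. All 5 desmosome partners (the plaque proteins Ppl and Evpl, the membrane protein Perp, the surface protein Cdsn, and Pof1b) were higher in suprabasal-like than in basal-like skin cells, from Perp at 2829.5 against 1067 CPM to Cdsn at 116 against 1.65 CPM. In PG sebocyte-like cells 2 of the 4 with enough UMIs were lower and none was higher, with Ppl at 2.74 against 29.1 CPM. PG was lower than skin in 3 of 4 partners in basal-like cells, 5 of 5 in suprabasal-like and 3 of 5 in upper follicle-like cells. Cdsn, for example, stood at 4.07 CPM in PG suprabasal-like cells, on 1 UMI.

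Of the adherens junction list, 3 of 11 in suprabasal-like skin cells were higher and 1 lower, with Nectin4 at 154 against 12.7 CPM and Cdh3 (P-cadherin, of basal cells) at 4.68 against 29.5 CPM, and PG lay within 2-fold of skin for all 10 tested in basal-like cells. In PG sebocyte-like cells 4 of 10 were lower and none was higher, with Cdh3 at 0.685 against 57.0 CPM. Of the gap junction genes, 3 of 6 were higher there and none lower, with Gjb2 (a connexin) at 229 against 58.3 CPM. Of the tight junction partners, 3 of 14 were higher and 3 lower in suprabasal-like skin cells, with the adaptor Cgn (cingulin) at 64.3 against 7.11 CPM, and 5 of 13 were lower and 1 higher in PG sebocyte-like cells. The share of this list that was lower in suprabasal-like skin cells was near that of all genes.

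The list of regulators held Grainyhead-like factors, which are known to act on junction genes in epithelia, and repressors of the Snail and Zeb families. In suprabasal-like skin cells 3 of 7 were higher and 2 lower: Grhl3 stood at 47.5 against 5.25 CPM and Snai2 at 3.62 against 33.1 CPM. Upper follicle-like cells showed the same 2 genes at the ends of the list, with Grhl3 at 62.2 against 5.25 CPM in skin and 24.5 against 2.71 CPM in PG, and Snai2 at 11.1 against 33.1 CPM and 11.1 against 49.1 CPM. In PG sebocyte-like cells 1 of 4 was higher (Grhl1, 71.3 against 15.6 CPM) and 3 were lower. In basal-like cells PG was lower than skin in 2 of 7, with Klf4, an epidermal differentiation factor, at 20.6 against 436 CPM, and higher in none.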

How the data were processed

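Single-cell 3' libraries of back skin and preputial gland (1 pool of 3 mice each) were processed by the authors with Cell Ranger (release 4 in the file headers) against mm10, the build in the submitters' processing notes. The deposited tables are raw UMI counts per gene and barcode, unfiltered. Barcodes with at least 500 genes, 1000 UMIs and at most 10% mitochondrial UMIs were kept. A marker was on in a cell when it reached 10% of its mean level in the top 0.5% of cells, and a class needed 3 markers on and a lead of 15 percentage points. These gate settings were chosen after marker values, not members, were seen. Of the skin and PG cells, 1432 and 1100 were 1 marker short, and 246 and 160 lacked the lead. Counts were summed per class and given as CPM with exact 95% Poisson intervals. Ratios have exact binomial intervals, and shares of cells are exact binomial estimates. With no replicates there is no test. Genes needed 10 expected UMIs in each class, classes 50 cells, and a call meant 2-fold. A side with no count was set to 3. Members were named at 50 CPM, and list genes when their ratio was the extreme of their list. The upper follicle comparisons were added after the data were seen. Doublets were not called in the main analysis beyond the lead between classes. The members and lists were chosen with earlier results of these data known. All 45 members matched GENCODE M21. Scripts ran in Python 3.11.15 with scipy 1.17.1 and scikit-learn 1.9.0, and were tested on simulated counts. Values of 1 member that reached 50 CPM and of 1 list gene are not reported here, and both stay in the counts.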

Additional observations from a re-analysis of the deposited data

Results flagged for a closer look

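Dsg3 was called in opposite directions by the same contrast in the 2 tissues. The log2 ratio of suprabasal-like over basal-like cells was -2.58 in back skin and 1.98 in the preputial gland. With 1 pooled library per tissue the difference itself was not tested. The suprabasal-like class of the gland had much less Krt1 and Krt10 than that of back skin, and whether that moves with Dsg3 was not tested. The gland ratio had no value with the stricter gate or the stricter barcode filter, under which the class held fewer than 50 cells, or with Leiden clusters, none of which was named suprabasal-like in the gland.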

How the results depend on the processing

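No paired analysis was possible because the labels give no replicate numbers and each tissue is 1 library. Alternatives were stricter barcode filters, a 5% mitochondrial limit, an upper UMI limit, removal of high doublet scores, a stricter gate, Leiden clusters, means over cells, free RNA subtraction, median centring and no filter on low values. Of 94 counts of members past 2-fold, 89 stayed within 1.5 times the reported count. The other 5 all came without the filter on low values, which lets in more members: 14 in suprabasal-like against basal-like PG cells (reported 6), 13 in upper follicle-like against basal-like skin cells (8), 18 in hair matrix-like (11) and 13 in inner root sheath-like (8) against basal-like cells, and 20 in PG against skin suprabasal-like cells (10). Of 1518 log2 ratios, 137 left their counting interval. Among them were 865 ratios called in the main analysis, of which none reversed and 844 stayed past 2-fold. A change of sign in a ratio that was not called was not counted. Calls of named members that fell within 2-fold, beside those given with their results, were Dsg2 in hair matrix-like cells with Leiden clusters (log2 -0.63) and, in sebocyte-like cells, Dsg2 at a 5% mitochondrial limit (-0.94), Dsp with median centring (-0.98) and Pkp3 with median centring (-0.96) and means over cells (-0.98). The PG suprabasal-like class gave no value with at least 1000 genes and 2000 UMIs or with the stricter gate, which left under 50 cells, or with Leiden clusters, none of which was named suprabasal-like in PG. The total counts hide shifts in the separate directions. Members higher in PG sebocyte-like cells numbered 4 as reported and from 1 to 4 under the alternatives. Members lower in these cells numbered 10 as reported, 7 with median centring and 15 with Leiden clusters. Also with Leiden clusters, members lower in inner root sheath-like than in basal-like cells numbered 2 (reported 4). Members lower in PG than in skin upper follicle-like cells then numbered 8 (reported 5). Comparisons with skin sebocyte-like cells gave no value under any setting. Depth limits members under 10 expected UMIs.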
